A study of Mus musculus with 8 samples.

Results

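Expression of 8 transcription factor genes linked to the hormone-sensing lineage of the mouse mammary gland (*Msx2*, *Tox2*, *Bhlhe41*, *Runx1*, *Tbx3*, *Tfap2b*, *Tfap2c* and *Prox1*) was followed across epithelial clusters and developmental stages. The genes were taken by symbol, and all 8 were found among the 27998 genes counted. Droplet-based single-cell RNA libraries had been made from C57BL/6N mice at 4 stages, with 1 mouse per library and 2 mice per stage. Nulliparous mice (NP) were 8 weeks old, gestation (G) was sampled at day 14.5, lactation (L) at day 6, and the post-involution stage (PI) 11 days after weaning. Cells had been sorted as EpCAM-positive and negative for CD45, CD31 and Ter119, so the libraries describe sorted epithelium rather than the whole gland. PI mouse 1 was in dioestrus, whereas PI mouse 2 and both NP mice were in oestrus, which leaves 1 PI mouse matched to the NP mice in cycle stage. Transcripts were counted by unique molecular identifiers (UMIs), and 23183 cells fell in the 15 epithelial clusters C1 to C15 that the authors had called. Totals ranged from 13306760 to 34552742 UMIs per library. Counts were summed over the cells of a mouse and a cluster wherever it held at least 20 cells, giving 35 sums, of which 30 were of the stage that made up most of each cluster. Unless stated otherwise, cluster levels are those of these 30 sums. Levels are given as CPM, the UMI counts of a gene scaled to the same total in every sum, for mouse 1 and mouse 2 of a stage, in that order. These are 3′ tags, so levels compare 1 gene between cells and not different genes with each other.

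Hormone-sensing cells are the luminal cells that carry the receptors for oestrogen and progesterone and relay these signals to their neighbours through secreted factors such as amphiregulin and RANKL. Luminal progenitors feed this lineage as well as the alveolar lineage, which makes milk, and basal cells form the outer contractile layer. Transcription factors bind DNA and set which genes a lineage uses. *Msx2* encodes a homeobox factor, *Tbx3* a T-box factor needed for the embryonic mammary bud, *Tox2* a factor of the HMG-box family, and *Bhlhe41* a basic helix-loop-helix repressor of the circadian clock. *Runx1* encodes the DNA-binding subunit of core binding factor, *Tfap2b* and *Tfap2c* encode AP-2 factors, and *Prox1* encodes a homeobox factor best known for its role in lymphatic endothelium.

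Clusters C2 (NP) and C1 (PI) held hormone-sensing progenitors, and C4 (NP), C3 (PI) and C5 (G) differentiated hormone-sensing cells. Luminal progenitors formed C6 (NP) and C7 (PI), alveolar progenitors C10 (G) and C11 (L), and differentiated alveolar cells C8 (G) and C9 (L). Basal cells were in C12 (NP), C13 (G) and C14 (L, myoepithelial), and C15 (L) held cells that the authors called *Procr*-positive basal cells, with the caution that they may not be epithelial. Pericyte markers (*Des*, *Cspg4*, *Pdgfrb* and *Rgs5*) summed to 5441 and 4819 CPM in C15 and to no more than 108.6 in C12 to C14. The receptor gene *Prlr* stood at 811 to 3079 CPM in C1 to C5 and at no more than 221 CPM in the other clusters, and *Esr1* and *Pgr* were likewise higher in each C1 to C5 sum than in any other. The PI cells that fell in C12 were an exception for *Prlr*, with 0 and 680 CPM. Clusters had been called on the same transcripts, so differences between clusters are described here without a test.

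The 8 genes lie at separate sites of the mm10 (GRCm38) assembly. *Msx2* (ENSMUSG00000021469) is at chr13:53466884-53473074 on the minus strand, *Tox2* (ENSMUSG00000074607) at chr2:163203125-163324170 on the plus strand, *Bhlhe41* (ENSMUSG00000030256) at chr6:145858243-145865558 on the minus strand, and *Runx1* (ENSMUSG00000022952) at chr16:92601466-92826149 on the minus strand. *Tbx3* (ENSMUSG00000018604) is at chr5:119670669-119684724 on the plus strand, *Tfap2b* (ENSMUSG00000025927) at chr1:19208914-19238576 on the plus strand, *Tfap2c* (ENSMUSG00000028640) at chr2:172549593-172558622 on the plus strand, and *Prox1* (ENSMUSG00000010175) at chr1:190118035-190170714 on the minus strand. Antisense genes overlap *Bhlhe41*, *Runx1*, *Tbx3* and *Prox1*, and the strand setting of the counting was not given in the sources used here. In C1 to C5 the antisense gene *Tbx3os1* had 103 UMIs beside 2993 of *Tbx3*, and *Gm26626* had 2 beside 25029 of *Runx1*, so reads of these pairs, few as the antisense ones are, cannot be told apart with certainty.

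Promoter sequence (RefSeq, GRCm38.p6) from 250 bases before to 50 bases after a start was held for 6 of the 8 genes, with 12 starts in all. *Tbx3* and *Tfap2c* were not matched. The promoters below belong to 4 genes whose levels moved with stage in the results that follow, *Msx2*, *Bhlhe41*, *Runx1* (upstream start) and *Tfap2b*. They are printed 5′ to 3′ on the strand of the gene, with matches to the motifs in capitals. The motifs, searched on both strands, were the E-box CACGTG, the RUNX motif TGTGGT, the GATA motif AGATAA, the AP-2 motif GCCNNNGGC and the half-site of the oestrogen response element, AGGTCA.
Msx2, chr13:53472731-53473030, minus strand: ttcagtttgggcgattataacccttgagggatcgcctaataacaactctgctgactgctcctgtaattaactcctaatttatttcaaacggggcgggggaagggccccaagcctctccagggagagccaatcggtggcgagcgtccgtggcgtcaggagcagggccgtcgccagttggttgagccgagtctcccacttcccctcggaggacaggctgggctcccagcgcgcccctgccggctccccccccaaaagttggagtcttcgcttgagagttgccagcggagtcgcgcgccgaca
Bhlhe41, chr6:145865371-145865670, minus strand: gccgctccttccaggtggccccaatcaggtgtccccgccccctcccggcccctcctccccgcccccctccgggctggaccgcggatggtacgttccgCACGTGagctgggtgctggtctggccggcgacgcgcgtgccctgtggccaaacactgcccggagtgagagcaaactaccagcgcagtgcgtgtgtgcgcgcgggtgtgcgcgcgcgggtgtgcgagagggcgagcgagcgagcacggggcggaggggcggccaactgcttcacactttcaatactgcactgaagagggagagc
Runx1, chr16:92826025-92826324, minus strand: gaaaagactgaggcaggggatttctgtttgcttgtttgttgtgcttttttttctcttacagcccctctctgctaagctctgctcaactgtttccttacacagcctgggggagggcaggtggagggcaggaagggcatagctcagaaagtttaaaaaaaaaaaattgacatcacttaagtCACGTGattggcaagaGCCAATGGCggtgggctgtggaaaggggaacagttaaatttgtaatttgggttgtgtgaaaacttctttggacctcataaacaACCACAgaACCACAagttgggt
Tfap2b, chr1:19211804-19212103, plus strand: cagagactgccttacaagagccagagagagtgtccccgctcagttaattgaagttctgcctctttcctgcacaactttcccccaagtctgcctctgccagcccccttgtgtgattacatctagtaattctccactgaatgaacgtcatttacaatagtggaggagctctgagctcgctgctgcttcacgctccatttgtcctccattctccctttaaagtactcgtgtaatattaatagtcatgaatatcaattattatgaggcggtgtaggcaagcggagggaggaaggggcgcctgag

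The *Bhlhe41* promoter held 1 E-box, a motif found in 7.15% of all 32851 promoters. The upstream *Runx1* promoter held 1 E-box, 2 RUNX motifs (in 16.8% of all promoters) and 1 AP-2 motif (in 16.6%). Those of *Msx2* and *Tfap2b* held no match. The GATA motif and the half-site, present in 11.2% and 16.3% of all promoters, were in none of the 12. GC content was 70.7% for *Bhlhe41* and 61.0% for *Msx2* but 45.0% for upstream *Runx1* (69.0% and no match at its other start) and 48.3% for *Tfap2b*, against a median of 52.7% over all promoters. A match is a match of letters only, and these windows leave out distal elements.

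*Msx2* was the 1 gene of the 8 whose sums in C1 to C5 all lay above those in every other cluster. Over 10943 genes with enough counts, 1.36% had that pattern. In the PI cluster C3 *Msx2* reached 149 and 140 CPM, in C1 79.4 and 69.8, in C5 73.0 and 77.4, in C4 72.0 and 62.5, and in C2 37.7 and 40.5. C3 was highest, C1 overlapped both C5 and C4, C5 lay above C4, and C2 was lowest of the 5. The luminal progenitor clusters were far lower, with 1.81 and 3.32 CPM in C6 and 2.57 and 2.89 in C7. *Msx2* stayed at or below 5.03 CPM in all basal and alveolar sums, and 5 UMIs in 53 PI cells of C12 (17.6 CPM in PI mouse 2) made the highest value outside the lineage. No *Msx2* UMI was found in C9, where a count of 0 allows up to 5.24 and 4.04 CPM (3 UMIs, counting error only), so a level like that of the other alveolar clusters was not detectable there.

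**Figure D1:**
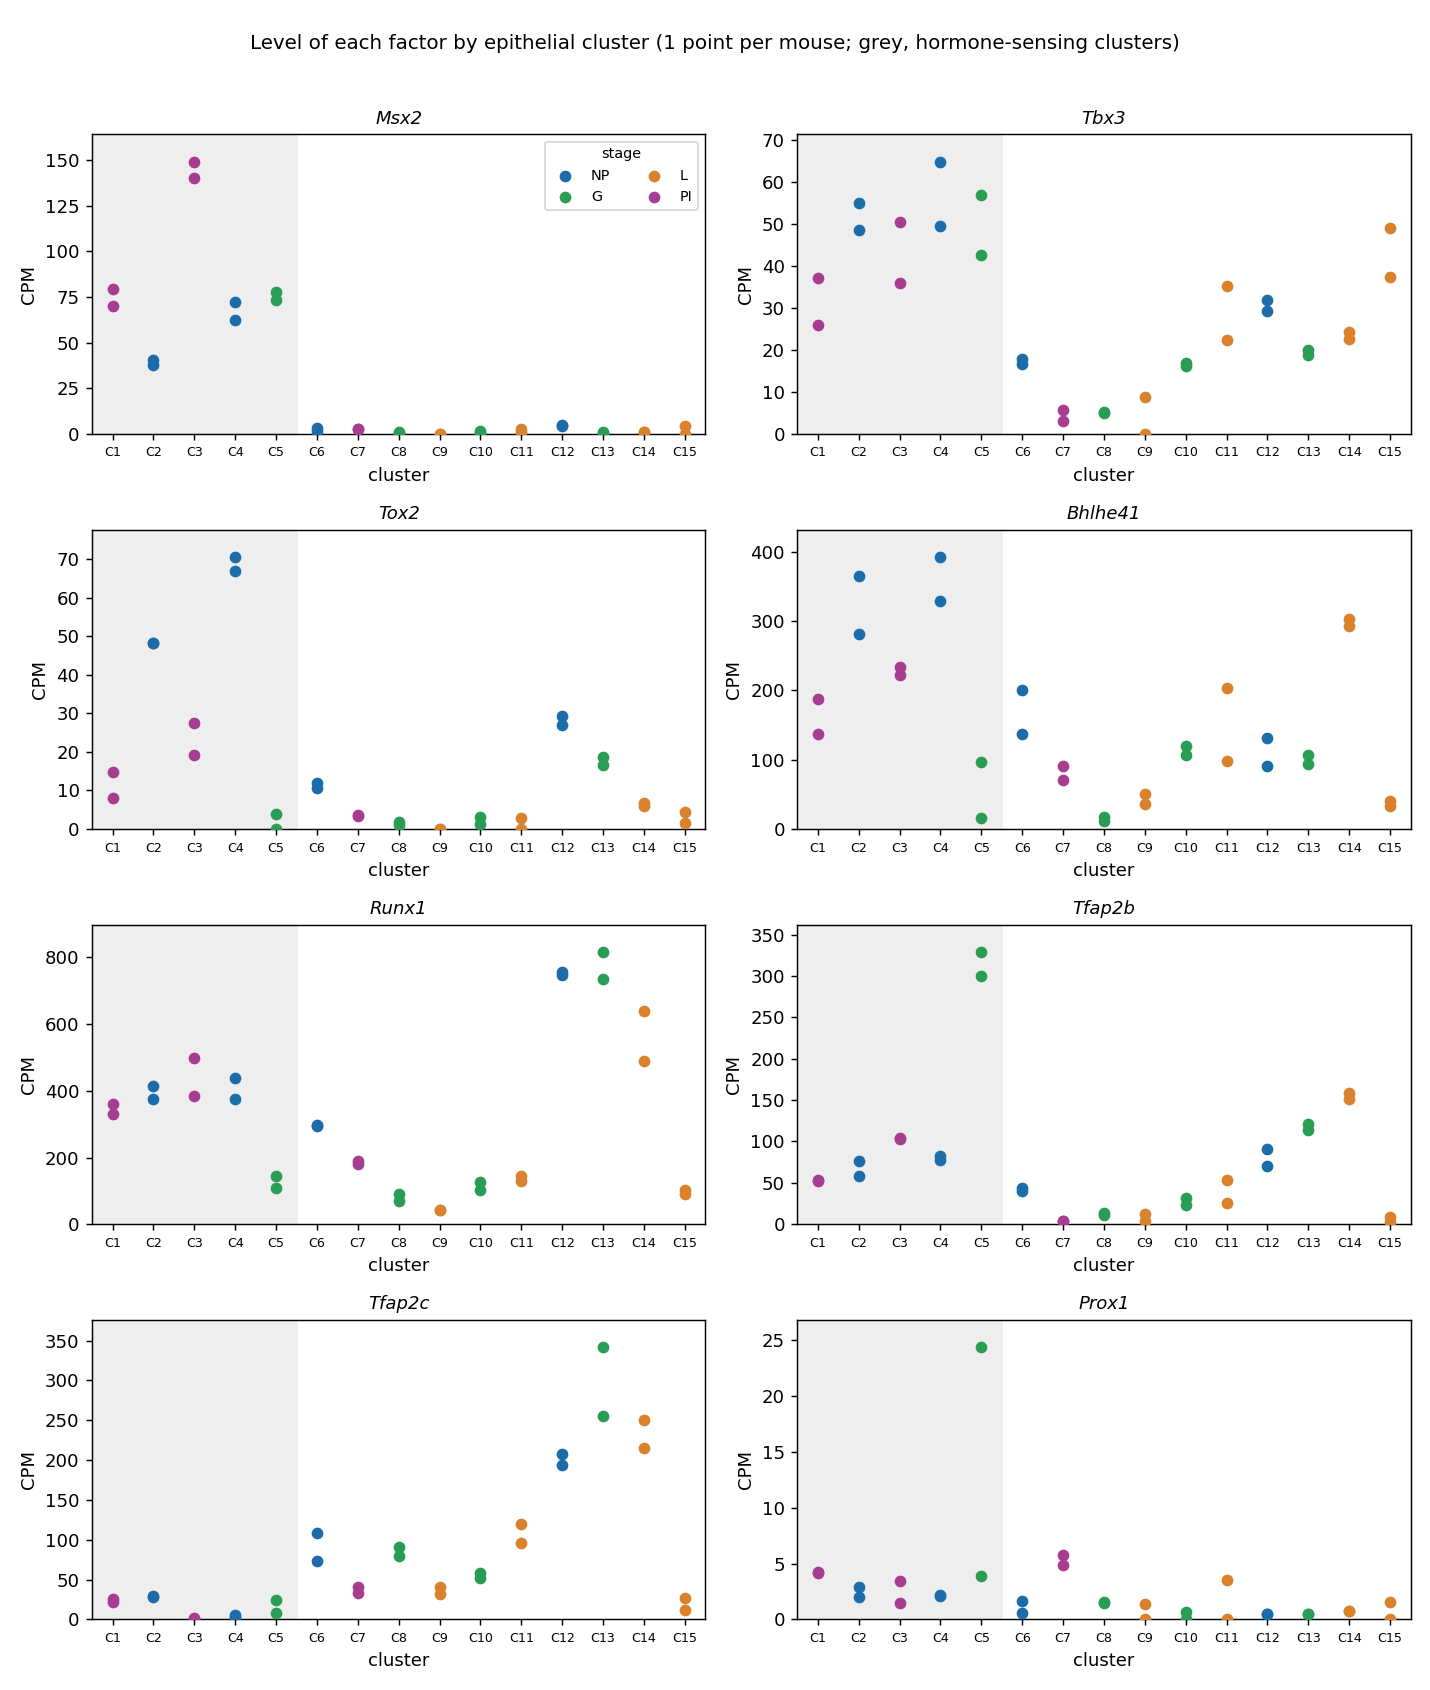
CPM of each gene on its own linear axis by cluster (C1 to C15), with 1 point per mouse coloured by stage and the hormone-sensing clusters shaded grey. *Msx2* stands between 37.7 and 149 CPM in C1 to C5 and at 5.03 CPM or less elsewhere, whereas *Runx1* and *Tfap2c* are highest in basal clusters.

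The other 7 genes were shared with other lineages. With respect to luminal clusters alone (C6 to C11), *Msx2* was again the 1 gene of the 8 without overlap, a pattern found in 3.21% of genes. *Tox2* was highest in the NP hormone-sensing clusters, with 66.9 and 70.6 CPM in C4 and 48.1 and 48.3 in C2, and then in NP basal cells, with 27.0 and 29.3 in C12, which overlapped C3 at 19.2 and 27.6. *Bhlhe41* was also highest in C4 (328.6 and 392.7 CPM) and C2 (281 and 366), but C14, the lactating myoepithelial cluster, stood at 293 and 303 and overlapped C2. *Tbx3* was found in all hormone-sensing clusters, with C1 below C4, C2 and C5. It stood at 49.4 and 64.8 CPM in C4, 48.5 and 54.9 in C2, 56.8 and 42.6 in C5, 50.4 and 35.9 in C3 and 37.1 and 25.9 in C1, ranges that overlap from each cluster to the next. The *Procr*-positive cluster C15 overlapped C2, C5 and C3, with 37.3 and 49.0 CPM. *Tbx3* was low in C7, at 5.68 and 3.01 CPM, a range that overlapped those of C8 and C9.

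Both AP-2 genes differed from these, in opposite ways. *Tfap2b* was highest in the gestation cluster C5, with 300.2 and 329 CPM, above every other cluster and followed by C14 at 158 and 151. The remaining hormone-sensing clusters ranged from 52.4 (C1) to 104 CPM (C3), where C4 and C2 overlapped the basal cluster C12, C3 lay between C12 and C13, and C1 lay below C12. *Tfap2c* was highest in basal cells, at 256 and 342 CPM in C13, and stood at 31.4 CPM or more in all luminal clusters outside the hormone-sensing lineage. In C2 it was at 27.8 and 30.1 CPM, in C4 at 5.68 and 3.65, and in C3 at 0.600 and 1.22. Every hormone-sensing sum thus lay below every other luminal sum for *Tfap2c*, with a narrow margin at C2, and Pearson's r between *Msx2* and *Tfap2c* was −0.73 over the 35 sums (log2(CPM + 10), as a description, since the sums share mice).

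**Figure D2:**
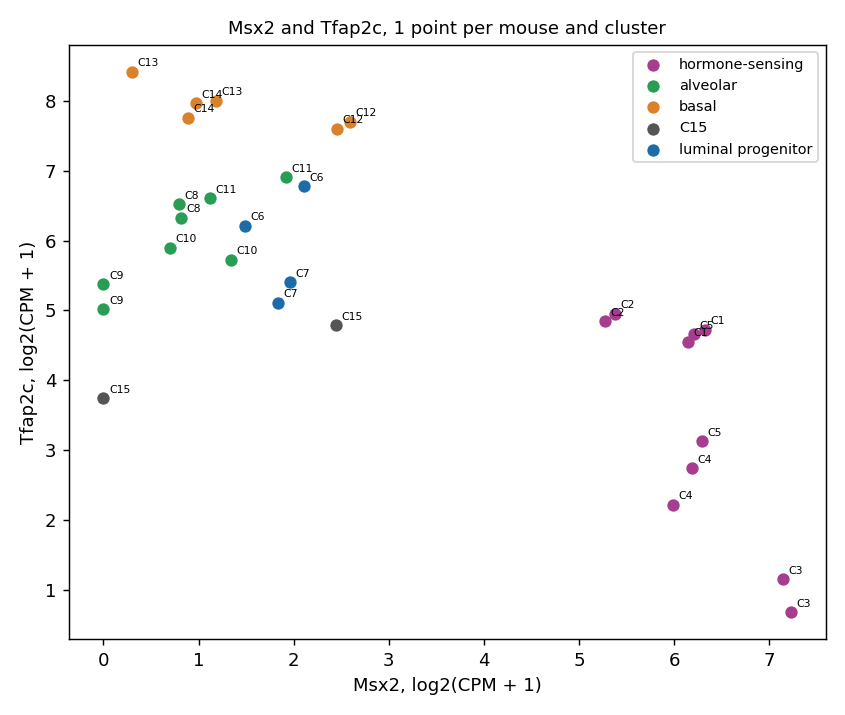
Level of *Msx2* (x axis) against that of *Tfap2c* (y axis), both as log2(CPM + 1), 1 point per sum of a mouse and a cluster, labelled by cluster and coloured by cell type. The hormone-sensing sums lie at 37.7 CPM or more of *Msx2* and 30.1 CPM or less of *Tfap2c*, and the other sums lie at 5.03 CPM or less of *Msx2*.

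*Runx1* and *Prox1* were not specific to the lineage either. *Runx1* was highest in basal cells, with 734 and 816 CPM in C13, 758 and 747 in C12 and 489 and 640 in C14. The hormone-sensing sums ranged from 108 (C5) to 498 CPM (C3), and those of the other luminal clusters from 43.1 to 298. *Runx1* in C1 to C4 lay above luminal progenitors and below C12 and C13, and C3 overlapped C14. *Prox1* was barely counted in the epithelium, at no more than 5.77 CPM in any cluster but C5, where 24.3 and 3.87 CPM rest on 3 and 1 UMIs. Outside the epithelium, in the small cluster C19 with 2459 to 3328 CPM of endothelial markers summed, it stood at 12.5 and 78.5 CPM in G mice and 22.3 and 52.4 in L mice.

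Clusters of the same mouse were compared next, which removes differences between mice. From luminal progenitors (C6) to differentiated hormone-sensing cells (C4) in NP mice, *Msx2* was 39.8-fold and 18.8-fold higher and *Tox2* 6.34-fold and 5.87-fold higher. *Msx2*, *Tox2* and *Tbx3* were at least 2-fold higher in both mice, a step that 11.6% of genes made, and the same 3 passed from C6 to C2, with 7.32% of genes. The study had named *Msx2*, *Tox2*, *Bhlhe41* and *Runx1* from NP and G cells of these data as rising towards hormone-sensing cells. Their steps here are thus no independent evidence of that rise. From C2 to C4 none of the 8 did, with 0.0375% of genes, and *Msx2* was 1.91-fold and 1.54-fold higher. *Tfap2c* went the other way, to 0.0775 and 0.0335 of its C6 level in C4.

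In PI mice more of the factors stood above luminal progenitors. From C7 to C3, 6 genes (all but *Tfap2c* and *Prox1*) were at least 2-fold higher in both mice, with 16.7% of genes, led by *Msx2* (58.0-fold and 48.5-fold) and *Tfap2b* (30.4-fold and 23.6-fold). *Tbx3* was 8.87-fold and 11.9-fold higher. From C7 to C1, 4 genes passed (*Msx2*, *Tox2*, *Tbx3* and *Tfap2b*), with 6.89% of genes, and from C1 to C3 none, with 1.76% of genes. *Msx2* came close to that last step, at 1.88-fold and 2.01-fold. In G mice *Msx2*, *Tbx3*, *Tfap2b* and *Prox1* were 2-fold or more higher in C5 than in C10, with 11.6% of genes, and *Tfap2b* was 12.7-fold and 10.3-fold higher, while *Prox1* rests there on 4 UMIs.

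Detection per cell followed the same lines. With each cell thinned to 2000 UMIs, a median of 11.7% of cells had an *Msx2* UMI over the hormone-sensing sums (3.55% to 24.5%) and 0% over the other luminal sums (up to 0.73%). Without thinning the medians were 49.1% and 1.12%. *Runx1* was detected in a median of 49.6% against 23.3% of thinned cells and *Bhlhe41* in 31.3% against 15.4%. *Tfap2c* was the exception, at 3.30% against 14.2%, and the other 7 genes had the higher median in hormone-sensing sums. How much of these shares came from free RNA in the droplets was not tested.

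Most single cells carried few of the 8 transcripts at that depth. A thinned cell had a mean of 1.37 and 1.57 of the 8 genes in C4, 1.43 and 1.34 in C3, 1.28 and 1.53 in C2, 1.22 and 1.07 in C1, and 0.95 and 0.878 in C5. C6 cells had 0.874 and 0.965, which overlapped C5, and C7 cells 0.513 and 0.504. Basal clusters were as high as C1 to C4 or higher, at 1.45 to 1.73, where *Runx1* and *Tfap2c* were both highest.

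Genes with the most similar pattern over the 35 sums were listed for each factor by Pearson's r of log2(CPM + 10) among 8879 genes, as a description. *Msx2* was closest to *Fam174b* and *Syt7* (both r = 0.98) and *Folr2* (r = 0.98). *Tox2* was closest to *Ube2q2* (r = 0.92), *Bhlhe41* to *Svil* (r = 0.86), *Tbx3* to *Pnisr* (r = 0.86) and *Tfap2b* to *Ccdc136* (r = 0.88). *Runx1* was closest to *Slco2a1* (r = 0.93), *Tfap2c* to *Lgals7* (r = 0.93), a keratinocyte galectin, and *Prox1*, with its few UMIs, to *Gm27168* (r = 0.79). Among the 8 themselves *Tox2* and *Runx1* were most alike (r = 0.74).

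The question of whether these factors returned to their nulliparous level after a cycle of pregnancy and involution was addressed by comparing PI with NP mice within a cell type (edgeR's quasi-likelihood test over all genes, Benjamini-Hochberg adjustment, threshold 0.05). In differentiated hormone-sensing cells *Msx2* was higher after involution and *Tox2* lower. *Msx2* rose from 72.4 and 62.6 to 142.5 and 138.3 CPM (log2 fold change 1.00 ± 0.15 SE, adjusted p = 0.0011). *Tox2* fell from 67.2 and 70.5 to 20.6 and 28.5 CPM (−1.49 ± 0.18, adjusted p = 0.00039). The PI cells that fell in C4, the NP cluster, had *Msx2* at 72.7 and 86.2 CPM and *Tox2* at 34.8 and 55.5 CPM (40 and 88 cells).

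*Bhlhe41*, the clock repressor, fell from 329 and 394 to 235 and 221 CPM in these cells (−0.73 ± 0.17, adjusted p = 0.015). *Tfap2c* fell from 5.64 and 3.64 to 0.822 and 1.43 CPM (−1.86 ± 0.38, adjusted p = 0.0084), which rests on 3 and 23 UMIs in the PI mice. For *Tbx3* (−0.50, adjusted p = 0.11), *Tfap2b* (0.33, adjusted p = 0.16), *Runx1* (0.06, adjusted p = 0.87) and *Prox1* (0.41, adjusted p = 0.55) no difference passed. Altogether 4 of the 8 passed, 1 higher and 3 lower, with 14.3% of all genes called, and the median log2 fold change of the 8 was −0.22 against −0.02 over all genes tested. The *Bhlhe41* call was lost without NP mouse 2 (adjusted p = 0.18) and the *Tfap2c* call without NP mouse 1 (adjusted p = 0.091), while *Tbx3* was called lower without PI mouse 1 (adjusted p = 0.0092).

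The same NP and PI mice were compared in hormone-sensing progenitors, where *Msx2* was again higher and *Tox2*, *Bhlhe41* and *Tbx3* were lower. *Msx2* rose from 37.9 and 40.5 to 79.5 and 70.0 CPM (0.91 ± 0.15, adjusted p = 0.0014). *Tox2* fell from 48.1 and 48.3 to 8.71 and 15.1 CPM (−1.90 ± 0.21, adjusted p = 0.0001). *Bhlhe41* fell from 281 and 366 to 192 and 137 CPM (−1.01 ± 0.18, adjusted p = 0.0032). *Tbx3*, the T-box factor, fell from 48.5 and 54.9 to 37.9 and 25.8 CPM (−0.77 ± 0.19, adjusted p = 0.015). Thus 4 of the 8 passed, 1 higher and 3 lower, with 16.6% of all genes called (1778), and their median was −0.32 against −0.02 over all genes. Without NP mouse 1 or NP mouse 2 the calls over all genes dropped to 538 and 476.

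Of these progenitor calls, that of *Tox2* held under every alternative, the 2-fold threshold included, and the other 3 did not. Without NP mouse 1 or without NP mouse 2 only 2 of the 8 were called, *Msx2* missing the threshold without NP mouse 1 (adjusted p = 0.053), *Bhlhe41* without NP mouse 2 (adjusted p = 0.097) and *Tbx3* without either (adjusted p = 0.074 and 0.21) and without PI mouse 2 (adjusted p = 0.11). The alveolar markers *Wap*, *Csn2*, *Glycam1* and *Lalba* summed to 5.6 and 1.7 CPM in C2 but 706 and 801 in C1, and their part in these differences was not tested.

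In luminal progenitors of these mice 6 of the 8 factors were lower after involution and *Prox1* was higher. *Tfap2b* fell from 43.8 and 40.2 to 4.11 and 4.49 CPM (−3.20 ± 0.20, adjusted p = 1.9e-06), *Tbx3* from 17.8 and 17.0 to 7.16 and 3.24 CPM (−1.67 ± 0.33, adjusted p = 0.0036), and *Tox2* from 10.6 and 12.01 to 3.31 and 3.62 CPM (−1.61 ± 0.30, adjusted p = 0.0026). *Tfap2c* fell from 73.3 and 109 to 33.5 and 41.4 CPM (−1.19 ± 0.20, adjusted p = 0.0013), *Bhlhe41* from 138 and 201 to 97.5 and 72.1 CPM (−0.91 ± 0.19, adjusted p = 0.0056), and *Runx1* from 298 and 295 to 178 and 190 CPM (−0.61 ± 0.12, adjusted p = 0.0036). In all 6 the groups did not overlap, a pattern whose share over all genes was not counted. With 2 mice against 2 this says little. In hormone-sensing progenitors the groups did not overlap for *Runx1*, *Tfap2b*, *Tfap2c* and *Prox1* either, and none of these was called. *Prox1* rose from 0.604 and 1.66 to 4.77 and 5.73 CPM (2.38 ± 0.52, adjusted p = 0.0067), that is from 2 and 4 to 36 and 46 UMIs, a ratio of 5.03 with a counting interval of 2.21 to 14.1. *Msx2*, near its floor here, did not pass (adjusted p = 0.78). The PI sums include 22 cells of PI mouse 1 that fell in C6, the NP cluster. In these cells *Tfap2b* stood at 39.6 (6 UMIs), *Tbx3* at 79.1 (12 UMIs) and *Bhlhe41* at 395.5 CPM (60 UMIs), close to or above the NP levels. *Runx1* at 98.9 (15 UMIs) and *Tfap2c* at 33.0 CPM (5 UMIs) lay below the NP levels. No *Tox2* UMI was found there, where a count of 0 allows up to 19.8 CPM (3 UMIs).

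With 7 of 8 called, 6 of them lower, against 26.9% of all genes called, the median of the 8 was −1.05 while that of all genes was −0.02. The *Bhlhe41* call was lost without NP mouse 2 (adjusted p = 0.055) and the *Prox1* call without NP mouse 1 (adjusted p = 0.086). Alveolar markers summed to 8.8 and 20.3 CPM in C6 and to 1454 and 1766 in C7, hormone-sensing markers (mostly *S100a6*) to 4275 and 4168 against 1363 and 1141, and luminal progenitor markers to 2390 and 2118 against 1323 and 914. The part of these markers was not tested, and fewer cells of a kind and less RNA per cell cannot be told apart in such sums.

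**Figure D3:**
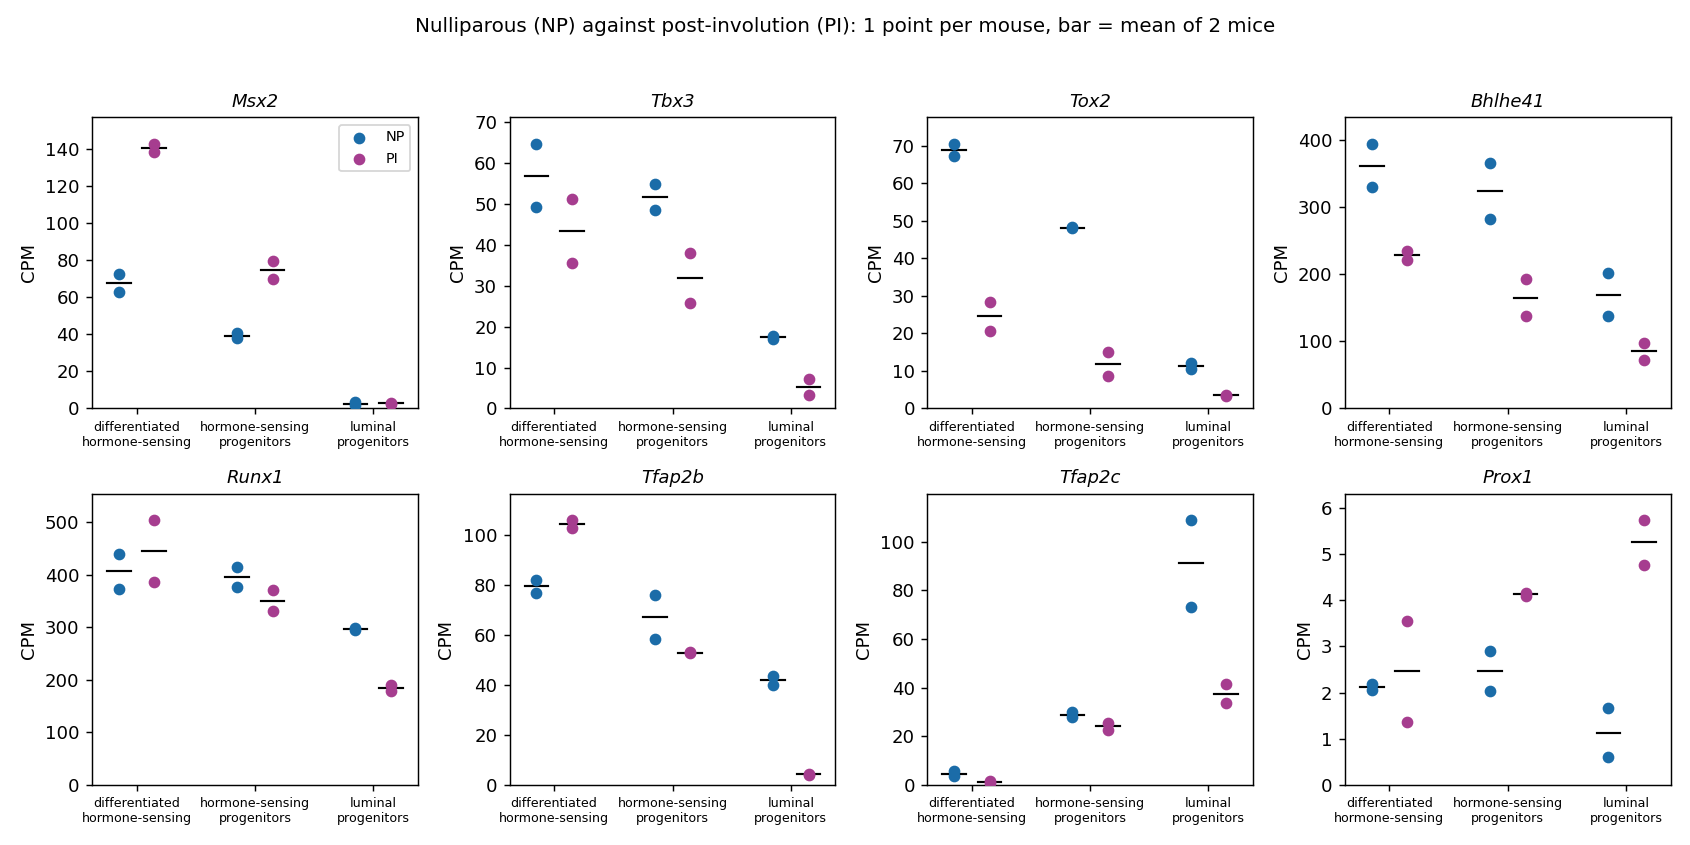
CPM of the 8 genes in NP (blue) and PI (purple) mice, 1 point per mouse and a bar at the mean of 2 mice, in differentiated hormone-sensing cells, hormone-sensing progenitors and luminal progenitors. *Msx2* is higher in PI in both hormone-sensing types, *Tox2* and *Bhlhe41* are lower in all 3 types, and *Tfap2b* is lower in luminal progenitors, at 4.11 and 4.49 CPM.

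Whether a change differed between cell types was tested in a fit with the mouse as a term. The PI change of *Tfap2b* in differentiated hormone-sensing cells exceeded that in luminal progenitors by 3.56 ± 0.21 (log2, adjusted p = 4.2e-10), and that in hormone-sensing progenitors did so by 2.85 ± 0.23 (adjusted p = 1.2e-07). Between differentiated cells and luminal progenitors *Tbx3*, *Runx1* and *Prox1* also differed, so 4 of 8 passed, with 20.2% of all genes called. In the test of hormone-sensing progenitors against luminal progenitors 1 of 8 passed, with 3.55% of genes, and in that of differentiated cells against hormone-sensing progenitors 2 of 8 (*Tfap2b* and *Tfap2c*), with 3.82%. No difference between cell types passed for *Msx2*, *Tox2* or *Bhlhe41*.

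Gestation was compared with the nulliparous stage in differentiated hormone-sensing cells, where the G sums held only 20 and 41 cells and share their NP mice with the PI comparison. *Tfap2b* rose from 76.9 and 82.1 to 300.2 and 329 CPM (adjusted p = 1.3e-15), about 4-fold. *Runx1* fell from 374 and 439 to 146 and 108 CPM (adjusted p = 3.8e-14). *Bhlhe41* fell to 16.2 and 96.8 CPM, resting on 2 and 25 UMIs (−2.63 ± 0.27, adjusted p = 1.1e-19), a ratio of 0.195 with a counting interval of 0.128 to 0.284. *Tox2*, with 858 and 1026 UMIs in the NP mice, had 0 and 1 UMIs in the G mice (adjusted p = 3.4e-10), and the ratio of CPM was 0.038 with a counting interval of 0.000962 to 0.212. In this comparison edgeR used a spread shared across genes in place of each gene's own. The small p-values and errors thus do not measure the spread of a gene between the mice. The counting intervals pool the mice of a stage and leave that spread out too.

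For *Msx2*, at 73.0 and 77.4 CPM in gestation, no difference passed (−0.07 ± 0.30, adjusted p = 0.92), and the error is wide. *Tbx3* (−0.51, adjusted p = 0.33), *Tfap2c* (1.28, adjusted p = 0.30) and *Prox1* (2.07, adjusted p = 0.16) did not pass. With 4 of 8 called, 1 higher and 3 lower, against 18.6% of all genes, the median of the 8 was −0.29, and that of all genes was −0.20, so changes stand relative to this shift. Without each mouse in turn these calls kept their direction, in fits that also used a spread shared across genes. Of all genes called, 881 were higher and 1166 lower, whereas DESeq2 gave 949 and 710.

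In basal cells both AP-2 genes were higher in gestation than in NP mice, and *Tox2*, *Tbx3* and *Msx2* were lower. *Tfap2b* rose from 91.2 and 70.1 to 114 and 122 CPM (0.62 ± 0.14, adjusted p = 0.0018) and *Tfap2c* from 194 and 207 to 255 and 341 CPM (0.66 ± 0.14, adjusted p = 0.0014). *Tox2* fell from 27.0 and 29.1 to 16.6 and 19.1 CPM (−0.55 ± 0.20, adjusted p = 0.033), and *Tbx3* fell by 0.58 ± 0.19 on the log2 scale (adjusted p = 0.020). *Msx2* fell from 19 and 11 to 5 and 1 UMIs (−2.56 ± 0.61, adjusted p = 0.0028), a ratio of 0.153 with a counting interval of 0.0521 to 0.374. Hence 5 of the 7 tested passed, with 46.1% of all genes called, and the median of the 7 was −0.03 against 0.01. *Msx2* was not called without G mouse 2 (log2 fold change −1.77) or under DESeq2 (adjusted p = 0.061). Under DESeq2 *Tox2* (adjusted p = 0.24) and *Tbx3* (adjusted p = 0.20) were not called either. The *Tox2* call was also lost in edgeR at equal depth (adjusted p = 0.17). It was lost without G mouse 1 (−0.46), NP mouse 1 (−0.65) or NP mouse 2 (−0.49), and that of *Tbx3* without G mouse 2 (−0.53) or NP mouse 1 (−0.55). Hormone-sensing markers summed to 2804 and 2526 CPM in C12 and 738 and 756 in C13, mostly *S100a6*, which had a mean of 6505 CPM in C14. Luminal keratins summed to 3665 and 2341 against 815 and 812. The part of these markers in the result was not tested.

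From gestation to lactation, with the same G mice, *Bhlhe41* rose in basal cells from 107 and 95.2 to 293 and 303 CPM (1.67 ± 0.12, adjusted p = 2.9e-05). *Tfap2b* rose by 0.50 ± 0.12 (log2, adjusted p = 0.0075), and *Tox2* fell to 5.91 and 6.68 CPM (−1.39 ± 0.21, adjusted p = 0.0009). These were 3 of 7 tested, with 48.3% of all genes called, and a median of 0.40 against 0.04. Immediate-early and heat-shock genes that rise during tissue dissociation summed to 4778 and 2782 CPM in C13 and 20420 and 16070 in C14, and their part was not tested.

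In PI basal cells, of which there were only 28 and 59, *Runx1* rose from 758 and 746 to 1294 and 1558 CPM (0.92 ± 0.18, adjusted p = 0.0015). It was the 1 of 6 genes tested that passed, with 7.43% of all genes called, and the median was 0.07 against −0.05. The call was lost without NP mouse 1 (adjusted p = 0.058) or NP mouse 2 (adjusted p = 0.054), and when genes of low count were kept (adjusted p = 0.19). Immune markers summed to 851.5 CPM in C12 cells of PI mouse 1, and their part was not tested.

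In alveolar progenitors *Tfap2c* rose from 52.0 and 58.6 CPM in gestation to 119 and 95.5 in lactation (1.24 ± 0.19, adjusted p = 0.0013). *Tbx3* rose from 16.8 and 16.2 to 34.6 and 21.9 CPM (1.08 ± 0.32, adjusted p = 0.031) and *Runx1* from 102 and 126 to 131 and 152 CPM (0.59 ± 0.17, adjusted p = 0.030). These were 3 of 5 tested, with 28.0% of all genes called and a median of 0.86 against −0.03. Without G mouse 1 only 1 of the 5 was called, *Runx1* (adjusted p = 0.27) and *Tbx3* missing the threshold, and basal markers summed to 162 and 222 CPM in C10 but 4785 and 3422 in C11, a difference whose part was not tested. Of all genes called here 1325 were higher and 1043 lower, and DESeq2 gave 732 and 298.

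In differentiated alveolar cells of the same G and L mice *Bhlhe41* rose from 11.8 and 18.0 to 36.4 and 51.0 CPM (2.49 ± 0.32, adjusted p = 0.00017), the 1 of 7 tested to pass, with 18.7% of all genes called and a median of 0.02 against −0.14. The L sums held 43 and 48 cells. The fold change includes edgeR's TMM scaling between sums, which CPM leave out, so it is larger than the CPM show. TMM factors computed over all genes were 1.3 and 1.35 in G mice and 0.781 and 0.731 in L mice. Milk protein transcripts took 96650 and 57390 CPM in C8 and 447500 and 417200 in C9, which leaves less of the total for other genes, and with these genes left out before scaling, an alternative chosen after seeing the data, *Bhlhe41* differed by 2.49 (adjusted p = 0.00033). Of all genes called 1131 were higher and 1088 lower, and DESeq2 gave 1525 and 862.

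**Figure D4:**
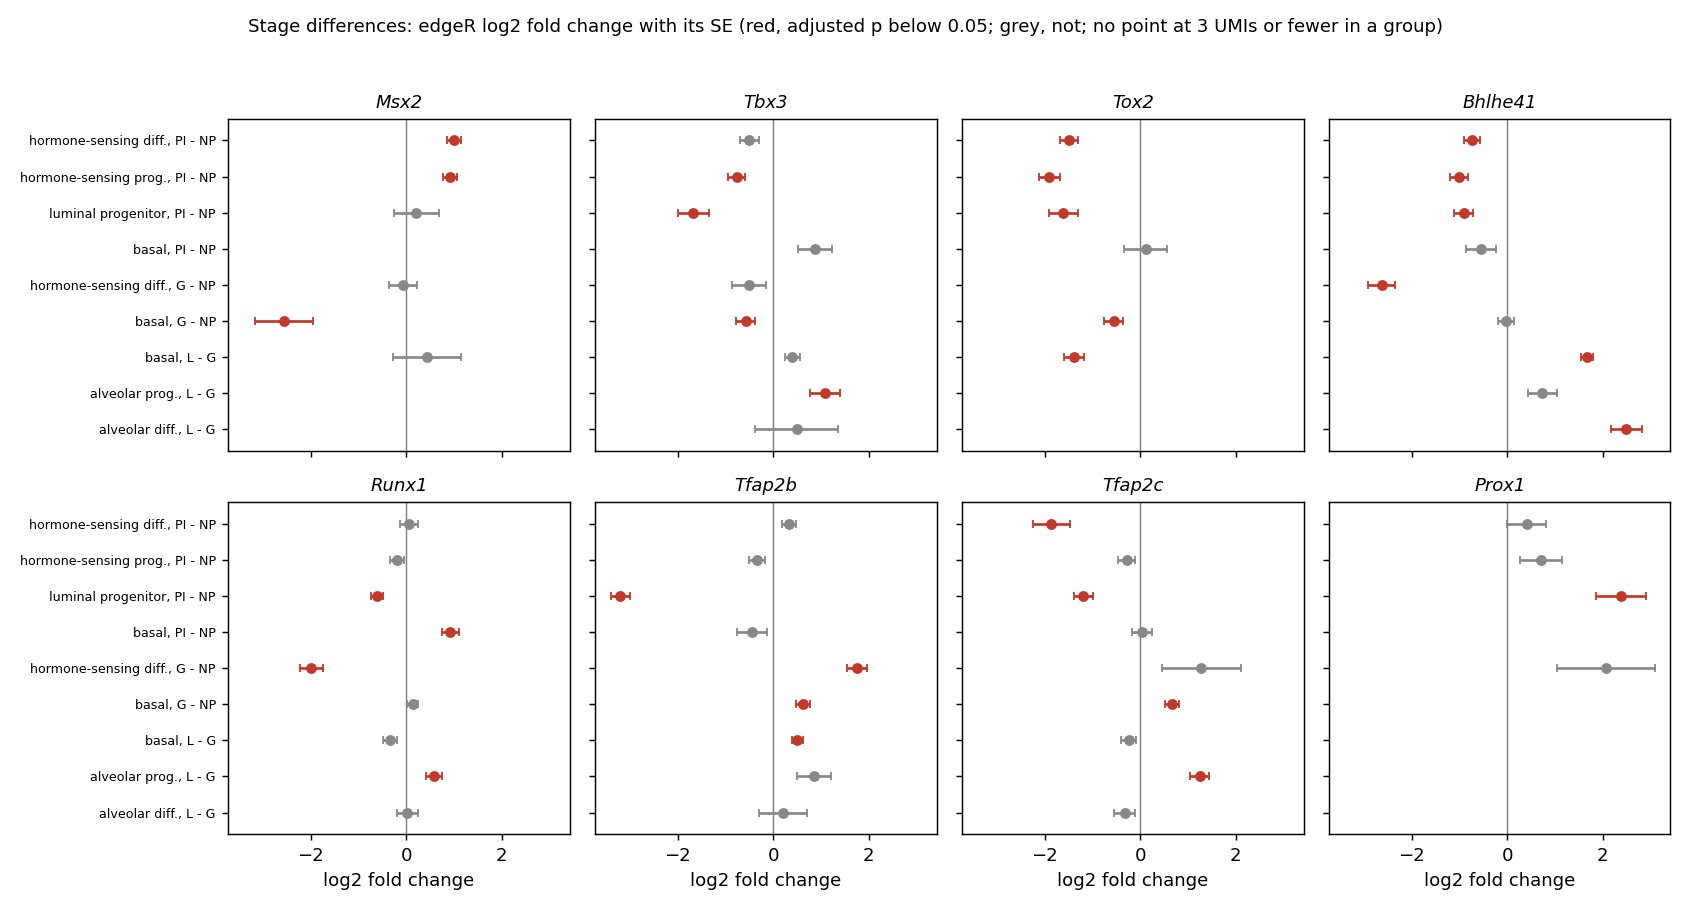
Log2 fold change of each gene in the 9 stage comparisons, with the standard error as a bar. Red points passed the test (adjusted p below 0.05) and grey points did not, and a gene that was not tested or had 3 UMIs or fewer in a group has no point. *Tfap2b* stands at −3.20 in PI luminal progenitors and right of 0 in gestation hormone-sensing cells.

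Close relatives of the 8 were described next, from 11 paralogues and partners. In differentiated hormone-sensing cells of gestation, where *Tox2* was almost absent, its paralogues were high. *Tox3* rose from 5.95 and 6.12 to 137.9 and 127.7 CPM, and *Tox* from no UMI in either NP mouse to 48.7 and 42.6 CPM (6 and 11 UMIs). Outside C5, *Tox* stood at 17.9 CPM (2 UMIs) in C12 cells of PI mouse 1 and at 10.9 CPM or less in all other sums of C1 to C15. *Msx1*, the paralogue of *Msx2*, also rose, from 0.548 and 0.756 to 16.2 and 7.74 CPM (2 and 2 UMIs in G), and *Bhlhe40* fell from a mean of 190 to 109 CPM and *Tfap2a* from 51.0 to 19.7. These were 5 of 7 tested, with 18.6% of all genes called, and a median of 0.46 against −0.20 over all genes.

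After involution *Msx1* rose in differentiated hormone-sensing cells, from a mean of 0.652 to 5.64 CPM (3.04 ± 0.37, adjusted p = 0.00035). *Bhlhe40*, the paralogue of *Bhlhe41*, rose from 190 to 304 CPM (0.61, adjusted p = 0.025). They were 2 of 6 tested, with 14.3% of all genes called, none was lower, and the median was 0.26 against −0.02. In hormone-sensing progenitors *Msx1* rose and *Cbfb*, the partner of the RUNX factors, fell (2 of 7 tested, with 16.6% of all genes called), and in luminal progenitors only *Tox4* of 5 tested passed, higher (with 26.9%). Of the relatives, 3 of 8 tested passed in basal cells at gestation (46.1% of all genes), 5 of 8 at lactation (48.3%) and 0 of 5 after involution (7.43%). In alveolar progenitors 1 of 5 passed (28.0% of all genes) and in differentiated alveolar cells 3 of 5 (18.7%).

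The wider hormone-sensing programme, 13 genes of receptors, pioneer factors and secreted signals, moved in both directions. After involution 5 of 13 passed in differentiated cells (14.3% of all genes), *Cited1*, a coregulator of oestrogen receptor, being higher and *Areg* (amphiregulin), *Ly6a*, *Tnfsf11* (RANKL) and *Wnt4* lower, with a median of −0.27. In hormone-sensing progenitors 7 of 12 tested passed (16.6% of all genes), *Cited1* and *Vdr* higher and *Areg*, *Calca*, *Esr1*, *Ly6a* and *Wnt4* lower, with a median of −0.35. In luminal progenitors 6 of 11 passed (26.9% of all genes), 3 in each direction. At gestation 8 of 13 passed in differentiated cells (18.6% of all genes), 4 in each direction, with *Tnfsf11* rising from a mean of 2.12 to 647 CPM and *Prlr* among those that fell. In basal cells 9 of 12 passed at gestation, 8 of them lower (46.1% of all genes), 9 of 11 at lactation (48.3%) and 0 of 11 after involution (7.43%). In alveolar progenitors 6 of 10 passed (28.0% of all genes) and in differentiated alveolar cells 5 of 13 (18.7%).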

How the data were processed

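The authors made droplet libraries (10x 3′, version 2 chemistry) from 8 mice, aligned reads to mm10 with Cell Ranger (STAR is named in the submitters' processing notes; version not given in the sources used here) and deposited raw UMI counts per gene and cell, together with the library and cluster of each cell, which were used as given. The authors removed 791 cells whose barcode occurred in more than 1 library, and among the cells used 0 barcodes were shared. Their filters on cells were kept, and doublets were not called again. Of 25806 barcodes, 23183 cells in C1 to C15 were used, and 1096 cells had an annotated UMI total that differed from the matrix. The combined matrix was not used.

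Counts as deposited were summed per mouse and cluster or cell type (at least 20 cells), with the mouse as replicate, and tested with edgeR 4.0.16 (R 4.3.3; TMM scaling, filterByExpr with 10 and 15 counts, quasi-likelihood F-test, Benjamini-Hochberg adjustment over all genes tested, threshold 0.05). Levels are CPM of these sums without TMM scaling, whereas log2 fold changes include it. Alternatives were DESeq2 1.42.0, no filter on low counts, equal depth, 1 cluster per stage, a replicate block and leaving out each mouse. A threshold of 2-fold (glmTreat) was also used, with calls at adjusted p below 0.01. With 2 mice against 2, an exact permutation test of a single value cannot go below p = 0.333. Thinning used 2000 UMIs per cell. Tables and figures were made in Python 3.11.15.

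In simulated counts with 200 changed genes, 4-fold changes were recovered for 90% of genes in the comparison of PI with NP differentiated hormone-sensing cells, 38% in that of G with NP and 45% in PI basal cells, and 2-fold changes for 26%, 4% and 1%. The simulation gave every gene the same fixed spread, which was not estimated from these mice. Recovery in the real comparisons may thus differ. The named genes were the 8 members, lists of relatives, the hormone-sensing programme, secretory lineage factors and factors falling on both arms, and the 3 genes most alike to each member. The members and lists were chosen with earlier results of these data known.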

Additional observations from a re-analysis of the deposited data

Results flagged for a closer look

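For 7 results the difference of PI from NP mice was unequal across cell types in edgeR's quasi-likelihood test of the interaction, with the mouse as a term. Of the differences between differentiated hormone-sensing cells and luminal progenitors, that of *Tfap2b* was 3.56 ± 0.21 (log2, adjusted p = 4.2e-10), that of *Tbx3* 1.28 ± 0.27 (adjusted p = 0.0017), that of *Runx1* 0.68 ± 0.14 (adjusted p = 0.0016) and that of *Prox1* −2.03 ± 0.67 (adjusted p = 0.039). Between hormone-sensing progenitors and luminal progenitors *Tfap2b* differed by 2.85 ± 0.23 (adjusted p = 1.2e-07). Between differentiated cells and hormone-sensing progenitors *Tfap2b* differed by 0.71 ± 0.16 (adjusted p = 0.012) and *Tfap2c* by −1.51 ± 0.42 (adjusted p = 0.045).

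The first and the fifth of these, both *Tfap2b* against luminal progenitors, held under every alternative run. *Tbx3* and *Runx1* missed the threshold without NP mouse 1 (adjusted p = 0.081 and 0.084). *Prox1* missed it under DESeq2 (adjusted p = 0.21) and without NP mouse 1, NP mouse 2 or PI mouse 1, and both differences between differentiated cells and progenitors were lost under DESeq2. No group has enough mice for a test of single outlying samples.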

How the results depend on the processing

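Of 338 alternative fits of the 39 calls of the 8 genes, the 2-fold threshold aside, 294 kept the call, 44 lost it and none turned its direction. With a test against a 2-fold change, 8 of the 32 stage calls were kept, and the number of genes called became 0 in PI differentiated hormone-sensing cells (from 4), 1 in hormone-sensing progenitors (from 4), 1 in luminal progenitors (from 7), 0 in basal cells at gestation (from 5), 1 in basal cells at lactation (from 3), 0 in PI basal cells (from 1) and 0 in alveolar progenitors (from 3). DESeq2 called 2 in basal cells at gestation, 1 in alveolar progenitors and 0 in the interaction of differentiated cells with hormone-sensing progenitors (from 2). Equal depth gave 3 in basal cells at gestation. Without the filter on low counts 0 were called in PI basal cells, 5 in alveolar progenitors and 3 in the interaction of hormone-sensing with luminal progenitors (from 1), where 1 cluster per stage gave 2. With cells thinned, 1 gene rather than 0 passed 2-fold from C1 to C3. The cause of these shifts was not tested.

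Leaving out 1 mouse at a time gave 3 to 5 calls (PI differentiated), 2 to 4 (PI hormone-sensing progenitors), 6 to 7 (PI luminal progenitors), 4 (G differentiated), 3 to 4 (basal, gestation), 3 to 4 (basal, lactation), 0 to 1 (PI basal), 1 to 4 (alveolar progenitors) and 1 (differentiated alveolar), and for the 3 interactions 1 to 4, 1 to 2 and 0 to 2. Where this left 1 mouse in a group, the spread between mice could come from the other group only. In all such fits for G differentiated cells, basal cells at gestation and PI basal cells, edgeR used a spread shared across genes in place of each gene's own. The same held for some fits of other comparisons. Keeping a call in those fits is thus no check of a gene's spread between mice. Mice with the same number did not deviate together (correlations −0.0515 to 0.0734), and the main fits did not pair them. Whether they shared any handling cannot be read from these correlations. A replicate block gave 4, 4, 7, 4, 5, 4, 1, 4 and 1 calls in the 9 stage comparisons, adding *Runx1* in basal cells at lactation and *Bhlhe41* in alveolar progenitors.

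Over all genes DESeq2 called 755 rather than 1778 in hormone-sensing progenitors, 1465 rather than 2892 in luminal progenitors, 2848 rather than 5114 in basal cells at gestation, 379 rather than 632 in PI basal cells and 1030 rather than 2368 in alveolar progenitors. For the interactions it called 1027, 213 and 211 rather than 2375, 417 and 449. Without the filter 18 genes were called in PI basal cells, and equal depth gave 661 rather than 2047 in G differentiated cells. The 2-fold threshold, at adjusted p below 0.01, called 36 to 760 genes. Leaving out 1 mouse, the calls over all genes ranged from 928 (without NP mouse 2) to 2458 in PI differentiated cells, 808 (without G mouse 2) to 1580 in G differentiated cells, 194 (without NP mouse 2) to 891 in PI basal cells and 609 (without G mouse 2) to 1890 in differentiated alveolar cells. The 1-cluster alternative was not run for PI basal cells, nor a block for the interactions, where the mouse is already a term. Small sums (20 to 59 cells) and the UMI counts of *Tox2*, *Bhlhe41* and *Prox1* in gestation limit the precision of those results.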

Other observations

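Secretory lineage factors that passed in PI progenitors were all higher. In PI luminal progenitors 5 of 8 were higher (*Ehf*, *Elf5*, *Foxc1*, *Foxs1* and *Stat5a*) and none lower, with 26.9% of all genes called and a median log2 fold change of 0.67, and in hormone-sensing progenitors 4 of 8 were higher (*Ehf*, *Elf5*, *Foxc1* and *Foxs1*) and none lower, with 16.6% of all genes called and a median of 0.62. In differentiated hormone-sensing cells *Elf5*, the driver of alveolar fate, rose and *Nfib* fell, of 7 tested (14.3% of all genes), and at gestation 0 of 7 passed in these cells (18.6%). In basal cells 2 of 7 passed at gestation (46.1% of all genes), 4 of 8 at lactation (48.3%) and 1 of 5 after involution (7.43%), and 4 of 8 passed in alveolar progenitors (28.0%) and 6 of 8 in differentiated alveolar cells (18.7%). The study had picked 3 genes from these data as falling along both luminal arms. Of these, *Creb5* and *Hmga1* were lower in PI mice in all 3 luminal cell types, and *Fosl1* passed in none. Of all genes, 14.3% were called in differentiated hormone-sensing cells, 16.6% in hormone-sensing progenitors and 26.9% in luminal progenitors. The study drew its arms from NP and G cells, so a difference of PI from NP mice is no independent evidence of a fall along them.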
